A study of Mus musculus with 20 samples.

Results

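A set of 10 genes of the fibroblast growth factor (FGF) pathway were followed through mouse habenula development. They were the ligands Fgf8, Fgf15 and Fgf17, the receptors Fgfr1, Fgfr2 and Fgfr3, and the feedback and target genes Spry1, Spry2, Etv4 and Etv5. The 10 were chosen by symbol, out of 37994 genes in the developmental tables and 36104 genes in the tables of a second set at E18. The habenula is a paired nucleus of the dorsal diencephalon with a medial and a lateral division, and its cells were captured in plates of 384 wells with the CEL-seq2 chemistry, which counts transcripts by unique molecular identifiers (UMIs). The developmental set held 15 plates of the Brn3a-tauLacZ line, a reporter line named for Pou4f1 by its older name Brn3a, with 1 plate at embryonic day E12 and 2 at each of E11, E13, E15, E18, the postnatal days P4 and P7, and adulthood. The second set held 5 plates of C57BL/6 mice at E18, namely 2 of left habenula, 2 of right habenula and 1 of both sides, and carried no reporter allele in its labels. No treatment was recorded for any group. The labels do not say which genotype the mice had at the reporter locus, how many mice of which sex each plate holds, how old the adults were or by which gate cells were sorted. No label says that plates of a stage came from separate animals, so every p-value below measures the spread between plates, which may be technical.

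FGF ligands bind FGF receptors, which are tyrosine kinases, and the signal passes through the Ras and MAP kinase cascade to the nucleus. There it raises transcription of the ETS factors Etv4 and Etv5 and of Sprouty genes such as Spry1 and Spry2, whose proteins dampen the same cascade, so that these 4 genes are widely used as readouts of FGF signalling. In the forebrain Fgf8 and Fgf17 are known as patterning ligands of midline signalling centres, and Fgf15, the mouse counterpart of human FGF19, is a ligand of the embryonic diencephalon and midbrain.

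The promoter windows of the Sprouty genes are shown because Etv4 and Etv5 belong to the ETS family, whose members bind DNA around a GGAA core, and because Spry1 had the widest movement of the feedback genes here. Each is the 250 bases before the start of the gene in RefSeq (GRCm38.p6), with GGAA, or TTCC for the other strand, in capitals. The Spry1 window lies at chr3:37639697-37639946 on the plus strand and the Spry2 window at chr14:105896820-105897069 on the minus strand.
Spry1: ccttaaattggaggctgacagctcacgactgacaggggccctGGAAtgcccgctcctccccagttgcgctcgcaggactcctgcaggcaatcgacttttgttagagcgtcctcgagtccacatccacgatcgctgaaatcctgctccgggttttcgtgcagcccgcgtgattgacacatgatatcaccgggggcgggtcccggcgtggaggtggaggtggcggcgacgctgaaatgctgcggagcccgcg
Spry2: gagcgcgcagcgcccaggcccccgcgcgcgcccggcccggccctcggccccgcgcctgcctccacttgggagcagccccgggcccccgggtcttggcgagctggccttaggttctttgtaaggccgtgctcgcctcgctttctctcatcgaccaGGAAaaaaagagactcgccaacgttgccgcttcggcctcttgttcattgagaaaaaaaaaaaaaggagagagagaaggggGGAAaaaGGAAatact
The Spry1 window held 1 match and the Spry2 window 3, against a median of 3 over 32851 windows of the same length, of which 93.4% held at least 1. The longer letters CCGGAA, read on both strands and containing the GGAA core, stood in 12.0% of all windows and in neither of these. A match describes letters and not a bound site. The promoter table held windows for 5 of the 10 genes.

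Wells were kept as cells at 1000 or more counts, 500 or more genes and at most 20% mitochondrial counts, which left 3729 of 5756 wells in the developmental set and 1082 of 1920 in the second. All plates use the same well barcodes by design. Kept wells per plate ranged from 56 to 345 in the developmental set and their summed counts from 758697 to 7760370, and adult plate 1 was the smallest. Adult plate 1 also kept only 14.6% of its wells. The median mitochondrial share of its kept wells was 11.9%, against 4.76% to 6.56% on the other developmental plates. Levels are the counts of all kept wells of a plate scaled to a total of 1000000 (CPM), and since each plate sums many cells, fewer cells of a type and less RNA per cell cannot be told apart. The 10 medial habenula markers summed to 335 to 4516 CPM per plate, lowest on E18 plate 1. That plate stood apart from its partner: 75 of its 267 kept wells held a Pou4f1 UMI, against 94 of 110 on E18 plate 2, and its summed progenitor marker level was 4223 CPM against 314 CPM. E13 plate 2 stood apart in its 10 ependymal and choroid plexus markers, at 4032 CPM against 21.6 CPM on E13 plate 1.

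**Figure D1:**
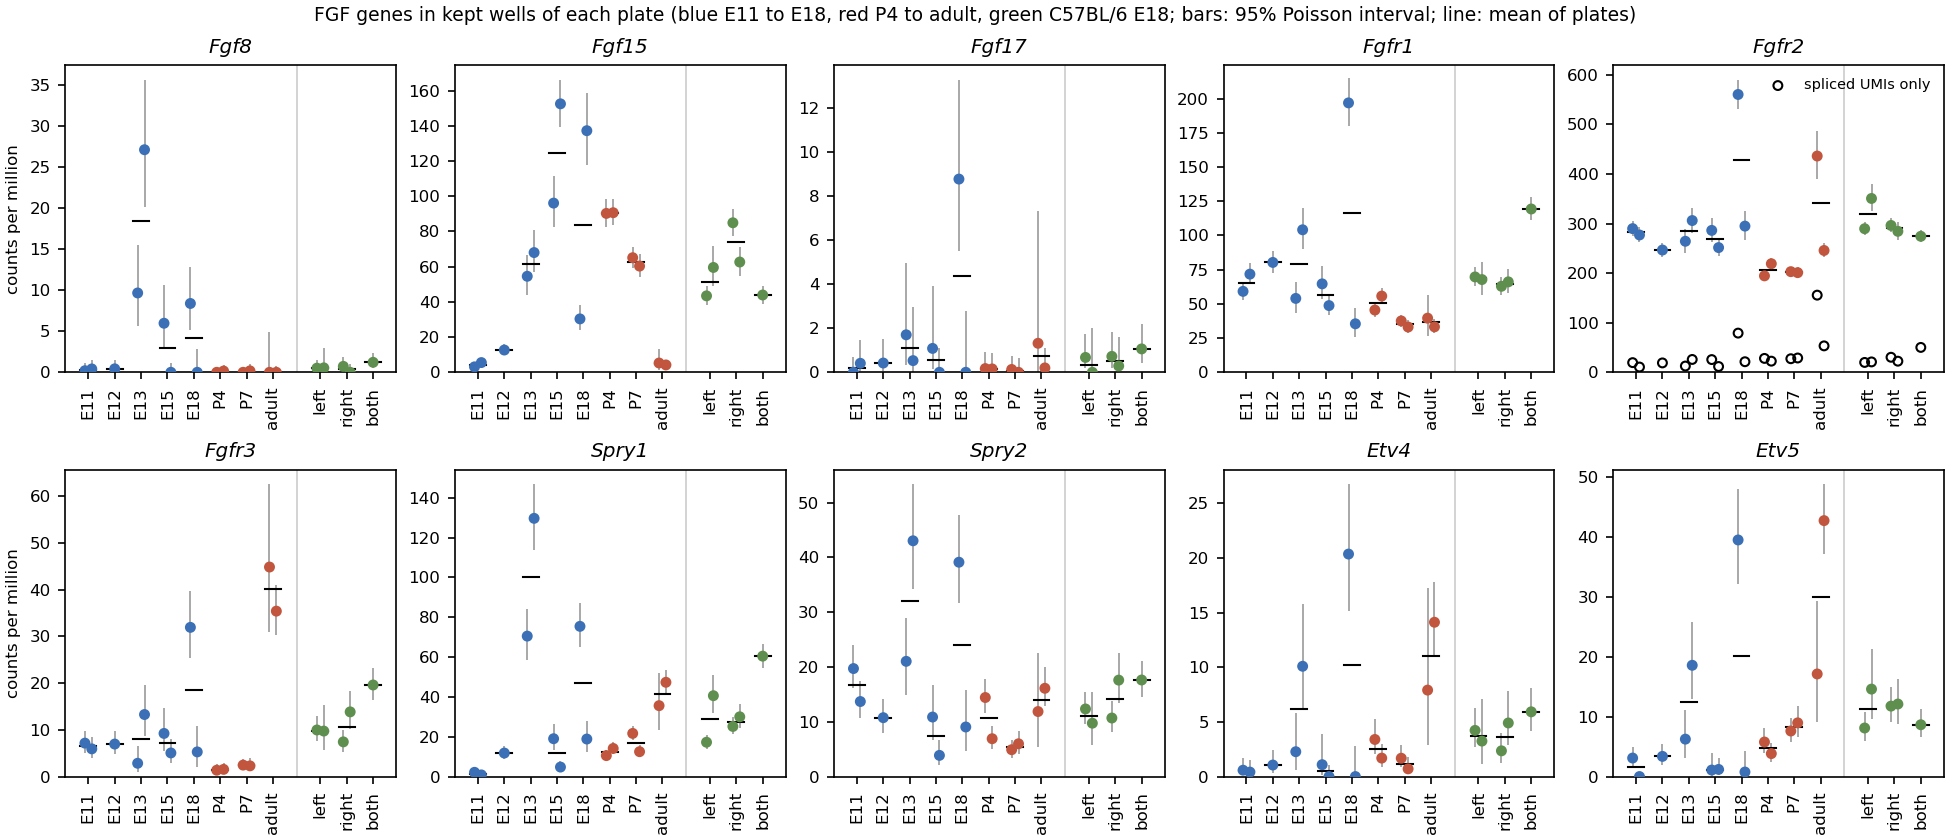
Level of each gene in CPM on each plate (points, with 95% Poisson intervals of the count) by stage and, to the right of the grey line, by side in the second set; black lines are means of plates and open circles in the Fgfr2 panel are spliced UMIs only. Fgf15 sits between 54.6 and 152.5 CPM on the E13, E15 and E18 plates other than E18 plate 1, and at 4.18 and 5.27 CPM in the adult.

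Among the ligands, Fgf15 (chr7:144896531-144900953, plus strand, GRCm38) had the clearest course. It stood at 3.09 and 5.52 CPM on the E11 plates and 12.6 CPM at E12, then at 54.6 and 68.0 CPM at E13 and 96.1 and 152.5 CPM at E15. The E18 plates split, at 30.3 and 137.3 CPM. Postnatal plates lay close together, at 90.3 and 90.7 CPM at P4 and 65.1 and 60.3 CPM at P7, and both adult plates were low again, at 5.27 and 4.18 CPM. No E11 or adult plate overlapped any plate from E12 to P7. Fgf15 rose from E11 to E13 by 3.67 on the log2 scale (SE 0.64, adjusted p = 0.0225, edgeR's quasi-likelihood test) and fell by 3.93 from P7 to the adult (SE 0.72, adjusted p = 0.0181). The first call was lost without E11 plate 1, E11 plate 2 or E13 plate 2, and the second without any of the 4 plates of its stages. The share of all genes called also fell in each of these fits except that without adult plate 2, where it rose. The fold change stayed between 3.29 and 4.14 and between -4.37 and -3.59 in all settings tried. In the adult only 4 counts on plate 1 and 21 counts on plate 2 came from this gene. Over all 7 stages with 2 plates Fgf15 differed, with a fitted range of 4.86 on the log2 scale (adjusted p = 0.000848). Fgf15 overlaps 2 genes on the opposite strand, and Fgfr1, Fgfr3 and Spry1 each overlap 1 there. The labels do not say whether counting used strand.

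Fgf8 (chr19:45736798-45742915, minus strand) was found mainly at E13. It gave 17 and 51 counts on the E13 plates, or 9.66 and 27.1 CPM, 11 counts on E15 plate 1 and 21 counts on E18 plate 1, and 0 counts on E15 plate 2 and E18 plate 2. The E11 and E12 plates held 1 or 2 counts each. After birth it was nearly absent from the counts, with 1 count on P4 plate 2, 1 on P7 plate 2 and 0 on the other 4 plates. Pooled over plates, the E11, E13, E15 and E18 plates held 103 counts in 46 of 1811 wells and the P4, P7 and adult plates 2 counts in 2 of 1627 wells. The ratio of the pooled levels was 71.6, with a 95% counting interval from 19.3 to 599, which covers counting error only and not the spread between plates. In edgeR the postnatal stages fell below the embryonic stages by 5.20 on the log2 scale (SE 1.38, adjusted p = 0.00968), a size that depends on the prior count since 4 plates were at 0. The call was lost without E11 plate 2. Without E15 plate 1 or E18 plate 1 that stage was left at 0 counts, as the adult was. In spliced UMIs E11 and the adult were both at 0 counts. With a stage at 0 on each side the contrast of stage means cannot be sized on the log scale, so these settings decide nothing about the call. The difference among stages held at an adjusted p of 0.0157 and was lost without E13 plate 2 (adjusted p = 0.0724) and in wells with a Pou4f1 UMI (adjusted p = 0.0565).

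Fgf17 (chr14:70636203-70642268, minus strand) was too low for the stage tests. It gave 22 counts on E18 plate 1, or 8.78 CPM, and at most 4 counts on any other plate that was not the plate of both sides, which held 7. Of all its counts in the developmental set, 51.4% came from 8 wells of E18 plate 1, described below with the clusters. Wells with a UMI made up 18 of 2102 on the 9 embryonic plates and 5 of 1627 on the 6 later plates.

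**Figure D2:**
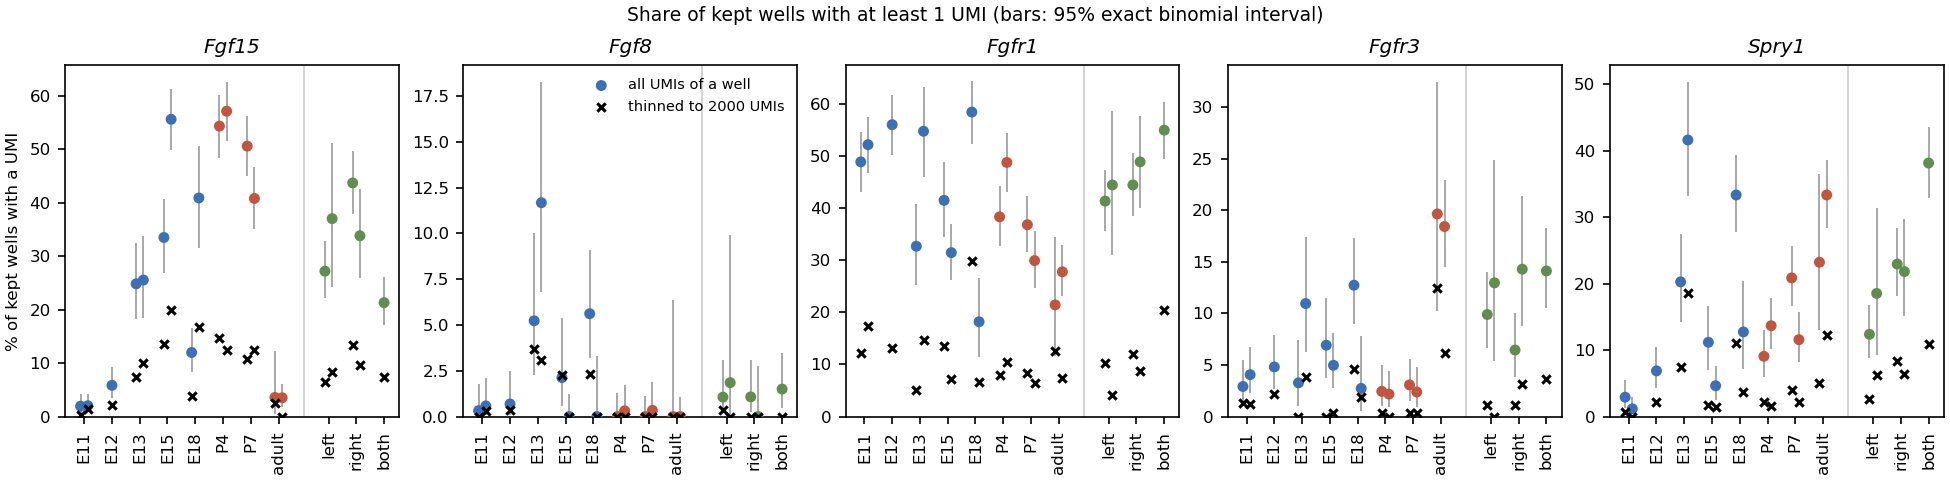
Percent of kept wells with at least 1 UMI of Fgf15, Fgf8, Fgfr1, Fgfr3 and Spry1 on each plate, with exact 95% binomial intervals (coloured points), and after thinning each well to 2000 UMIs (crosses). Fgf15 reaches 55.6% of wells at E15 and 57.1% at P4 before thinning, and at most 19.9% after it.

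The share of kept wells with an Fgf15 UMI was 1.94% and 2.03% at E11, 24.8% and 25.5% at E13, 33.5% and 55.6% at E15 and 12.0% and 40.9% at E18. The P4 plates gave 54.4% and 57.1%, the P7 plates 50.6% and 40.8%, and the adult plates 3.57% and 3.51%. Like the level, the share was low at E11 and in the adult, but the mean share was highest at P4 and the mean level at E15. Wells differed in depth, with median counts of 5058 to 23108 per plate, and the shares fell when each well was thinned to 2000 UMIs. Thinned shares of Fgf15 were 13.6% and 19.9% at E15, 14.7% and 12.4% at P4 and 2.5% and 0% in the adult. Fgf8 was found in 5.23% and 11.7% of wells at E13 and in no more than 0.340% of wells on any postnatal plate. Free RNA can give UMIs to wells that do not express a gene. The neuron-like wells, most of them from E11, held an Fgf15 UMI in 1.64% of 550 at a median of 16654 counts. The oligodendrocyte lineage-like wells held none in 101 at a median of 7953 counts, and a floor of 3 wells is 2.97% of them, a limit on wells with a UMI and not on cells expressing the gene. Fgf15 was low at E11 and in the adult, where oligodendrocyte lineage markers were highest. These shares therefore cannot show how much free RNA reached wells from E13 to P7. On those plates 0% to 9.68% of the wells not kept held an Fgf15 UMI, most on P4 plate 2 (6 of 62, at a median of 477 counts).

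Among the receptors, Fgfr1 (chr8:25513654-25575718, plus strand) was found on every plate and was lower after birth. Its level was 59.1 and 71.7 CPM at E11, 80.3 CPM at E12, 54.0 and 104 CPM at E13, 64.6 and 48.7 CPM at E15, and 197 and 35.4 CPM at E18. The P4, P7 and adult plates lay between 33.1 and 55.7 CPM and overlapped the E13, E15 and E18 plates. Postnatal stages fell below embryonic stages by 0.82 on the log2 scale (SE 0.29, adjusted p = 0.0348). The call was lost in 10 of the 14 fits that left out a plate (adjusted p up to 0.110), among them that without E13 plate 2 (-0.66, adjusted p = 0.0838), and without wells above 3 times the plate median (-0.66, adjusted p = 0.104). Without E18 plate 1 the change was -0.50 (adjusted p = 0.0230), and in wells with a Pou4f1 UMI it was -1.14 (adjusted p = 0.00148). Fgfr1 was found in 18.2% to 58.4% of kept wells per plate in the developmental set.

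Fgfr3 (chr5:33721674-33737068, plus strand) was highest in the adult. Its level was 44.9 and 35.4 CPM on the adult plates and 31.9 CPM on E18 plate 1, between 2.84 and 13.3 CPM on the other embryonic plates of the developmental set, and between 1.36 and 2.45 CPM at P4 and P7. All 4 plates of P4 and P7 lay below every other plate of either set. Fgfr3 fell from E18 to P4 by 3.44 on the log2 scale (SE 0.76, adjusted p = 0.0123) and rose from P7 to the adult by 3.93 (SE 0.74, adjusted p = 0.0209). Without E18 plate 1 the fall was 1.72 (adjusted p = 0.232), and the call was also lost without either P4 plate (adjusted p = 0.0947 and 0.0987) and in a fit of only the 4 plates of E18 and P4 (adjusted p = 0.0941). The adult rise lost its call without P7 plate 1, P7 plate 2 or adult plate 1 (adjusted p = 0.193, 0.209 and 0.0934) and in wells with a Pou4f1 UMI, where it was 2.66 (adjusted p = 0.0921). The 10 astrocyte markers summed to 1237 and 649 CPM in the adult, 1140 CPM on E18 plate 1 and 85.4 to 112 CPM at P4 and P7. They did not follow Fgfr3 on every plate. Their sum was 329 CPM on E13 plate 1, where Fgfr3 was at 2.84 CPM. On the E11 plates it was 175 and 180 CPM, with Fgfr3 at 7.15 and 5.93 CPM. The part of these markers in the result was not tested. Over all stages Fgfr3 differed with a fitted range of 4.62 on the log2 scale (adjusted p = 0.00389).

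Fgfr2 (listed at 194.5 to 560.4 CPM on the developmental plates) needs a separate reading, because most of its UMIs were unspliced. The unspliced share was 73.9% to 97.0% per plate for Fgfr2, against 17.6% to 28.9% for all genes together. In GENCODE release M21 the gene with its identifier spans chr7:130162451-133123350 on the minus strand, or 2960900 bases, and overlaps 69 other genes, 36 of them on the same strand. RefSeq gives Fgfr2 104358 bases, at chr7:130162451-130266808. The labels do not name the gene model used for counting, which makes total Fgfr2 counts uncertain. Spliced UMIs alone gave 10.6 to 28.8 CPM on all developmental plates but E18 plate 1 (79.0 CPM) and the adult plates (156 and 53.3 CPM). On total counts Fgfr2 did not pass the test among stages (adjusted p = 0.179). With spliced UMIs, an alternative chosen after seeing the data, it did (adjusted p = 0.0273, beside 47.4% of all genes called there), and the postnatal stages were higher by 0.92 on the log2 scale (SE 0.34, adjusted p = 0.0379, beside 52.5% of genes called), whereas total counts gave -0.25 (adjusted p = 0.211). The 10 oligodendrocyte lineage markers reached 11582 and 3202 CPM on the adult plates, against at most 393 CPM on other developmental plates, and their part in the spliced level was not tested.

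**Figure D3:**
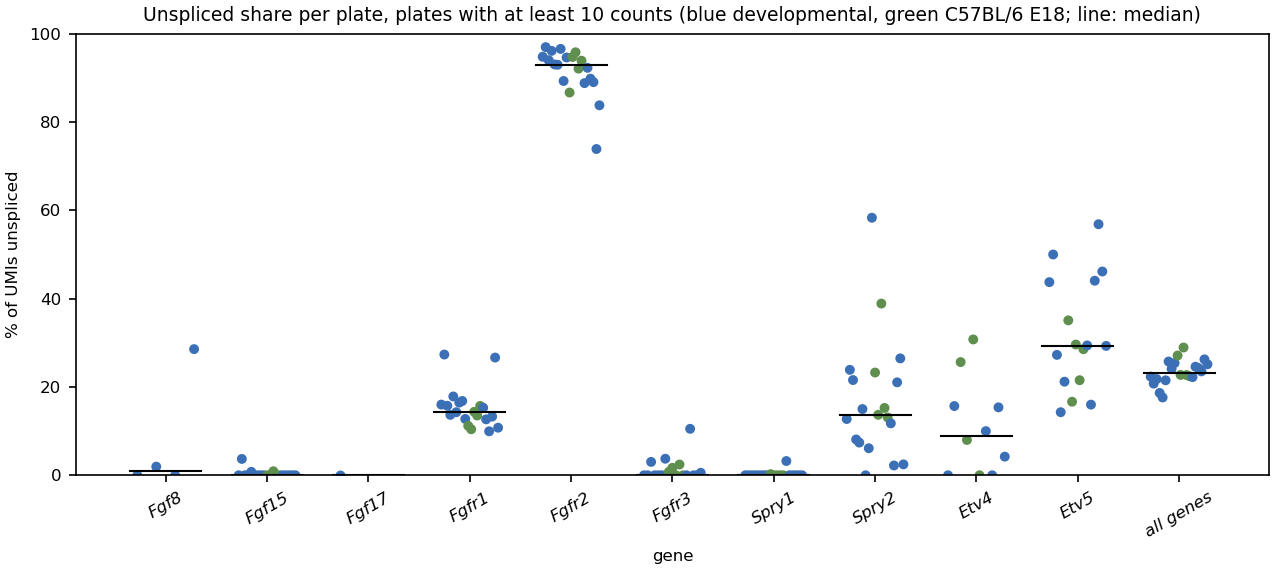
Percent of UMIs counted as unspliced for each gene on each plate where the gene had at least 10 counts, and for all genes together; black lines are medians. Every Fgfr2 point lies at 73.9% or above, while the points for all genes lie between 17.6% and 28.9%.

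Of the feedback genes, Spry1 (chr3:37639947-37644598, plus strand) moved most. It stood at 2.12 and 0.82 CPM at E11, 11.8 CPM at E12 and 70.5 and 129.7 CPM at E13. It was at 19.0 and 4.75 CPM at E15, 75.4 and 18.8 CPM at E18, 10.5 to 21.7 CPM at P4 and P7, and 35.6 and 47.3 CPM in the adult. Both E11 plates lay below all other plates, and no other plate of the developmental set but E18 plate 1 reached the range of E13. Spry1 rose from E11 to E13 by 5.89 on the log2 scale (SE 0.79, adjusted p = 0.00561). The E11 plates held 11 and 4 counts, and the call was lost without either of them, in fits that also called a smaller share of all genes. In wells with a Pou4f1 UMI the rise was 5.29 (adjusted p = 0.00206). The 10 vascular and fibroblast markers summed to 75.7 and 14.3 CPM at E11, 313 and 1264 CPM at E13 and 148 and 17.2 CPM at E15. They did not follow Spry1 on every plate. Their sums were 1218 CPM on E18 plate 2 and 759 CPM on P7 plate 1, where Spry1 was at 18.8 and 21.7 CPM. On E18 plate 1, with Spry1 at 75.4 CPM, the sum was 568 CPM. The part of these markers in the result was not tested. The later fall to E15 was 3.04 on the log2 scale (SE 0.68) and did not pass in edgeR (adjusted p = 0.124). Over all stages Spry1 differed with a fitted range of 5.89 (adjusted p = 0.00170).

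Spry2 (chr14:105891947-105896819, minus strand) was at 3.86 to 43.0 CPM in the developmental set, highest on E13 plate 2 and E18 plate 1 (39.1 CPM) and lowest on E15 plate 2. Etv4 (chr11:101769742-101785371, minus strand) was at 20.4 CPM on E18 plate 1, 7.91 and 14.1 CPM on the adult plates and 10.1 CPM on E13 plate 2, and at 3.39 CPM or less on the other developmental plates. Etv5 (chr16:22381309-22439719, minus strand) reached 42.8 and 17.1 CPM in the adult, 39.5 CPM on E18 plate 1 and 18.6 CPM on E13 plate 2, and was at 8.97 CPM or less on the other developmental plates. For all 3 genes E13 plate 1 lay below E13 plate 2 and E18 plate 2 below E18 plate 1. None of the 3 passed the test among stages (adjusted p = 0.0612, 0.0584 and 0.0610), and all 3 passed without E18 plate 1, without E18 plate 2, without wells above 3 times the plate median, with no filter on low genes and in DESeq2. From E15 to E18 the fitted changes of Etv4 and Etv5 were 4.40 (SE 1.59, adjusted p = 0.210) and 3.96 (SE 1.42, adjusted p = 0.208). Both turned negative without E18 plate 1, on few counts: E18 plate 2 held 0 counts of Etv4 and 1 of Etv5, against 2 and 0 counts of Etv4 and 2 and 4 of Etv5 on the E15 plates. The high embryonic plates were also those with the highest progenitor marker sums, 4223 CPM on E18 plate 1 and 2070 CPM on E13 plate 2 against 221 to 1166 CPM on the others, and this was not tested as a source. A small cluster found only on E18 plate 1, described below, held Etv5 and Spry2 at a higher level than any other cluster. Its part was not tested either.

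**Figure D4:**
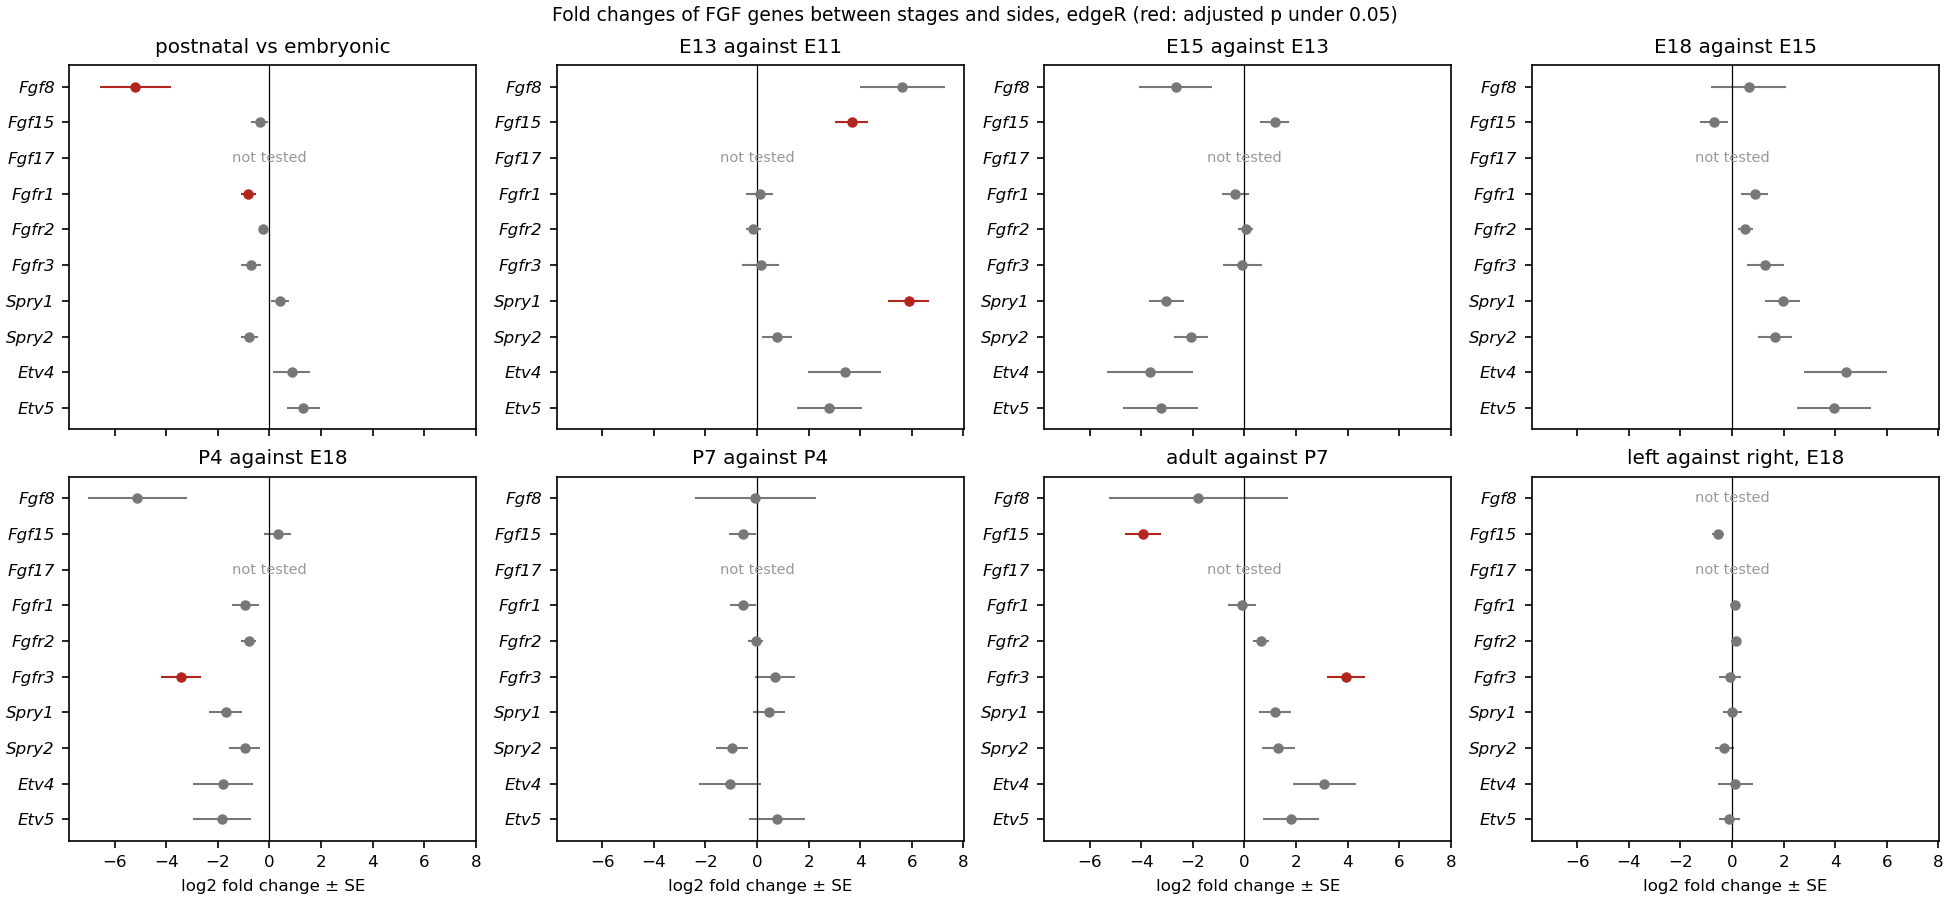
Log2 fold change of each gene, with its standard error, for postnatal against embryonic stages, successive stages and left against right habenula, from edgeR; red points have an adjusted p under 0.05. The red points lie right of zero at E13 against E11 (Fgf15 and Spry1), and Fgf15 and Fgfr3 lie on opposite sides of zero in the adult against P7.

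Across the comparisons few of the 9 genes with enough counts for the stage tests were called, and successive comparisons share the plates of the stage between them. Among the 7 stages with 2 plates, 4 of the 9 differed (Fgf8, Fgf15, Fgfr3 and Spry1), close to the 46.4% of all genes called. That count depended on the setting. Without wells above 3 times the plate median 7 of 9 differed, beside 46.1% of all genes. With no filter on low genes 9 of 10 differed, beside 27.0%, and in DESeq2 7 of 10, beside 48.0%. Other settings with no plate left out gave 4 or 5, and leaving out a plate moved the count both ways. Between embryonic and postnatal stages 50.5% of all genes were called, and 24.8% of all genes were lower after birth, and of the 9 genes Fgf8 and Fgfr1 were lower and 0 higher. From E11 to E13 the call fell on 2 of the 9, both higher, against 1.45% of all genes in either direction and 0.854% higher. At E15 against E13 it fell on 0 of the 9 and 0.0917% of all genes, and at E18 against E15 on 0 of the 9 and 0.195% of genes. At those steps 4 members each had an unadjusted p under 0.05 in edgeR (Spry1, Spry2, Etv4 and Etv5 at both), beside 2183 and 3009 of 17453 genes. DESeq2 called 1 and 0 of these members, beside 2.58% and 3.84% of all genes. The numbers at an unadjusted p under 0.05 in edgeR depended on the plate left out. At E15 against E13 fewer members had such a p without E13 plate 2 or E15 plate 2, and more without E15 plate 1. At E18 against E15 fewer had it without E18 plate 1 or E15 plate 2, and more without E18 plate 2 or E15 plate 1. Directions at these steps also rested on single plates. Without E18 plate 1 the genes with a positive change went from 8 to 4 of 9 at E18 against E15 and from 1 to 5 of 9 at P4 against E18. Without E13 plate 2, where Fgf17 could be tested too, they went from 2 of 9 to 4 of 10 at E15 against E13. At P4 against E18 it fell on Fgfr3 alone, lower, against 19.6% of all genes called and 10.4% of all genes lower. At P7 against P4 it fell on 0 of the 9 and 0.00573% of all genes. There 0 members had an unadjusted p under 0.05 in edgeR and 0 were called by DESeq2, beside 475 of 17453 genes and 0.147% of genes. In the adult against P7 it fell on Fgf15, lower, and Fgfr3, higher, against 3.58% of all genes, 1.82% lower and 1.76% higher.

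At E18 no member passed the test between the left and right plates of C57BL/6 mice. Of the 8 members tested none was called, as was none of 15489 genes (0%) by edgeR, where 182 had an unadjusted p under 0.05, and DESeq2 called 1 gene that was no member. Fgf15 was at 43.4 and 59.6 CPM on the left and 85.0 and 62.7 CPM on the right, so that the sides did not overlap in these counts. In spliced UMIs alone they did, at 56.8 and 84.5 CPM on the left and 110.2 and 81.0 CPM on the right. Its difference, left minus right, was -0.53 on the log2 scale (SE 0.24, unadjusted p = 0.0479, adjusted p = 1.00), and the unadjusted p from edgeR was 0.0929 with spliced UMIs and 0.0516 with RLE size factors. The other 7 members differed by -0.29 to 0.16 with standard errors of 0.19 to 0.67, which does not show that the sides were alike. Erythroid marker sums were 19048 and 17220.4 CPM on the left and 3410.5 and 266 CPM on the right, and their part was not tested. The plate of both sides had the highest Fgfr1 (119 CPM), Fgfr3 (19.6 CPM) and Spry1 (60.5 CPM) of the 5, and the highest progenitor marker sum, 1973 CPM against 706 to 1118 CPM.

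To see which cells held the genes, kept wells were clustered without the 10 genes and without the rest of the pathway. Clusters were named from marker lists, and further rules, given with the processing, could withhold a name. The values below describe clusters and carry no test. The 79 progenitor-like wells were led by genes of dividing cells such as Top2a, Ccnb1 and Mki67. Fgf15 was there at 199 CPM (45.6% of wells), Fgfr1 at 179 CPM, Fgfr3 at 96.4 CPM, Spry1 at 209 CPM and Fgf8 at 54.4 CPM (17.7% of wells). These wells gave 49.5% of all Fgf8 counts, and a cluster led by Ttr, Tmem132c and Loxl1 gave another 35.5%. Within the progenitor-like wells the ligand and the feedback gene were low at E11 and high at E13. Spry1 was at 15.4 and 0 CPM at E11, 96.6 CPM at E12 and 682 and 470 CPM at E13, and Fgf8 at 0 and 0 CPM, 6.03 CPM, and 124 and 147 CPM on the same plates. Fgfr3 ran the other way, at 142 and 168 CPM at E11, 151 CPM at E12 and 10.3 and 35.7 CPM at E13. Fgf15 was at 53.8 and 183 CPM at E11, 296 CPM at E12, and 330.4 and 322 CPM at E13. On E18 plate 1 Fgf8 and Fgf15 were both at 37.4 CPM and Spry1 at 187 CPM. Each of these plates gave only 8 to 19 such wells.

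**Figure D5:**
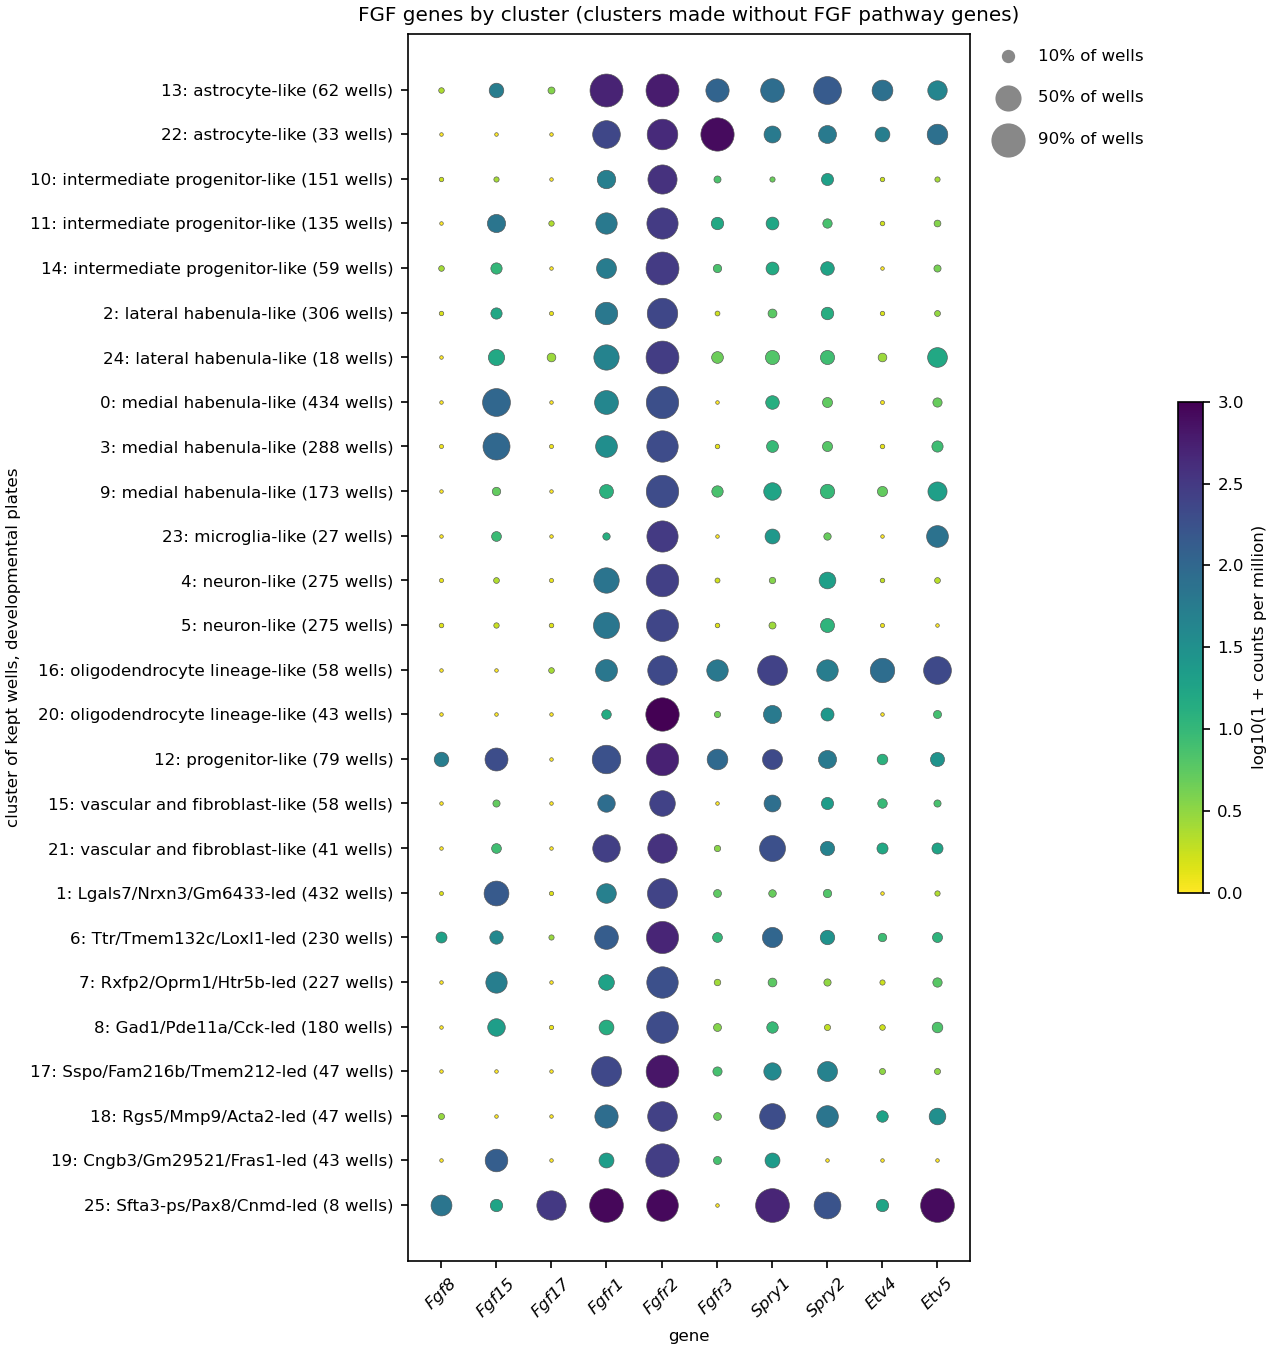
Each gene in each cluster of the developmental plates; dot size is the percent of wells with a UMI and colour the level as log10(1 + CPM). Fgf15 fills the medial habenula-like clusters 0 and 3, Fgfr3 is highest in the astrocyte-like cluster 22 (809 CPM), and Fgfr1, Spry1 and Etv5 are highest in the 8 wells of cluster 25.

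In neurons the ligand Fgf15 stood apart by cluster. The medial habenula-like clusters 0 and 3, found mainly on the P4 and P7 plates, held it at 101 and 99.6 CPM, in 67.5% and 63.5% of wells, and an unnamed cluster led by Lgals7, Nrxn3 and Gm6433, with 60.4% of its wells from E15 plate 2, held it at 144 CPM in 53.5% of wells. The medial habenula-like cluster 9, which came from the adult plates, held 0 CPM on plate 1 and 4.46 CPM on plate 2. Its wells on adult plate 1 are a part of the 56 kept there. A floor of 3 counts is therefore worth more than 3.95 CPM in them, and the 0 is no measured difference from plate 2. Clusters 0 and 3 gave between 86.0 and 129 CPM on each of the 4 P4 and P7 plates, so within medial habenula-like wells the adult levels did not overlap those of P4 and P7. Lateral habenula-like cluster 2 held Fgf15 at 15.1 CPM and the neuron-like clusters 4 and 5, mostly from E11, at 1.30 and 0.79 CPM. In the second set the medial habenula-like cluster led by Clec18a and Chat held 197 CPM in 79.5% of 44 wells, and the other 2 medial habenula-like clusters 47.8 and 82.4 CPM.

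In the astrocyte-like cluster 13 Fgfr1 was at 432 to 719 CPM on each of its 5 plates, from E18 to P7. Fgfr3 was at 175 CPM there on E18 plate 1 and 26.4 to 103 CPM at P4 and P7, and the adult astrocyte-like cluster 22 held it at 457 and 983 CPM. In the oligodendrocyte lineage-like cluster 16, led by Gpr17, Neu4 and Pdgfra, Spry1 was at 258 CPM, Etv5 at 218 CPM and Etv4 at 86.3 CPM, and most of its wells came from adult plate 2. There the 3 genes were at 363, 357 and 140.4 CPM, against 66.6, 0 and 0 CPM in the 6 wells of P7 plate 1. Spliced Fgfr2 was at 222 CPM in a cluster led by Sspo, Fam216b and Tmem212. Microglia-like wells held Etv5 in 40.7% of 27. In a cluster led by Rgs5, Mmp9 and Acta2, genes of vessel-wall cells, Spry1 was at 197 CPM. In the second set a cluster led by Pla2g7, Nid1 and Acsbg1 that also had Aqp4 and Slc1a3 among its top genes held Fgfr1 at 562 CPM, Fgfr3 at 160.1 CPM and Spry2 at 142 CPM, and a cluster led by Pdgfra, Gpr17 and Sox10 held Spry1 at 420.4 CPM and Etv5 at 178 CPM.

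A group of 8 wells, all of E18 plate 1, held 6 of the members at a higher level than any other cluster of the developmental set. Its leading genes were Sfta3-ps, Pax8, Cnmd and Nkx2-1, and it was left unnamed. A rule that withheld a name where Pax8 or Nkx2-1 led applied to it. That rule names only these genes, which are in no marker list, and it was not in the plan. Fgf17 was at 320.2 CPM in 6 of the 8 wells, Etv5 at 826 CPM, Fgfr1 at 877 CPM, Spry1 at 489 CPM, Spry2 at 168.5 CPM and Fgf8 at 67.4 CPM, while Fgfr3 was at 0. For Fgf8 the ranking rested on few counts, since all kept wells of E18 plate 1 together held 21. The 8 wells gave 8.44% of all Etv5 counts and 2.13% of all Spry1 counts in the developmental set. All of these counts lay on E18 plate 1, which held only 99 counts of Etv5 and 189 of Spry1. Their share of that plate was therefore several times larger. How the stage results stand without these wells was not tested.

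Over wells of the developmental set, 36 of the 50 wells with an Fgf8 UMI also held a Spry1 UMI (72.0%), against 14.2% of the other wells of all stages, at median depths of 12957 and 13742 counts. Most of the 50 came from plates where Spry1 was common. On E13 plate 1 Spry1 was in 5 of 8 wells with an Fgf8 UMI and 17.9% of the others, on E13 plate 2 in 16 of 16 and 33.9%, and on E18 plate 1 in 10 of 15 and 31.3%. Over the 15 developmental plates Etv4 and Etv5 had the closest course of any pair of the 9 members with enough counts, Fgf17 left out (Pearson r = 0.90 of log2(CPM + 1)), and Spry1 correlated with each at 0.74. Among all 13957 genes with enough counts, the closest to Fgf15 were Zic5 (0.93), Adamts5 (0.92) and Bcl11b (0.92), and the closest to Fgfr3 were Tmem243 (0.95), Gemin8 (0.94) and Specc1 (0.93). Itpkb (0.95), Cavin1 (0.92) and Axl (0.92) were closest to Spry1, and Fgfrl1, a receptor-like FGF binding protein, Lamb2 and Pacsin3 were closest to Etv4 (0.96, 0.92 and 0.92). These correlations describe plates that share depth and cell mixture within a stage.

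The other genes of the pathway were counted from a list of 54, of which 47 could be tested between stages. Between embryonic and postnatal stages 17 were higher and 12 lower after birth, beside 50.5% of all genes called and 24.8% lower. Of 7 further ligands 3 were higher and 2 lower, and Fgf1 (4.98 on the log2 scale) and Fgf20 (2.87) rose most. Of the 4 intracellular FGF homologous factors, which are not secreted, 2 were higher, Fgf12 among them (2.5). Of 9 co-receptors and receptor-like genes 2 were higher and 4 lower, among them the heparan sulfatase Sulf1 (-2.15) and the membrane protein Flrt3 (-2.11). Of 16 adaptor and cascade genes 6 were higher and 4 lower, with the GTPase Nras (-1.89) and the adaptor Shc1 (-1.85) the most lowered. Of 11 further feedback and target genes 4 were higher and 2 lower, and the ETS factor Etv1 rose by 3.64. Among all 7 stages 31 of the 47 differed, beside 46.4% of all genes. Leaving out a plate moved both counts of the list, and the share of all genes called moved in the same fits.

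At E13 against E11 the test called Etv1 (3.47) and the glypican Gpc1 (-1.19) among the 47, beside 1.45% of all genes, and at E18 against E15 Fgf1 (4.07), beside 0.195%. Neither Etv1 nor Gpc1 was called without E13 plate 2 (adjusted p = 0.28 and 0.395) or without either E11 plate, and Fgf1 was not without E18 plate 1 (4.26, adjusted p = 0.0708) or without either E15 plate. Without E18 plate 2 the E18 against E15 step called 11 of the list, 7 higher and 4 lower, with 10.5% of all genes called. At P4 against E18 it called 7 higher, led by Etv1 (4.28), the Sprouty gene Spry4 (2.49), the MAP kinase phosphatase Dusp4 (1.80) and Fgf12 (1.70), and 5 lower, led by Flrt1 (-2.81), Il17rd (-2.25), Flrt3 (-2.22) and Fgf9 (-1.88), beside 19.6% of all genes. Without E18 plate 1 it called 3 higher and 2 lower, with 8.51% of all genes called. There Etv1 (4.24, adjusted p = 0.0176), Flrt3 (-1.89, adjusted p = 0.0160) and Fgf9 (-2.47, adjusted p = 0.0332) were called and Spry4 (2.63, adjusted p = 0.0620), Dusp4, Fgf12, Flrt1 and Il17rd were not. Without P4 plate 1 or P4 plate 2 it called 4 and 1 of the list, with 4.73% and 3.08% of all genes called, and without E18 plate 2 it called 23, with 28.5% of all genes called. In the adult against P7 the cyclin Ccnd1 (2.77) and Spry4 (1.93) were higher and Nras (-1.30) lower, beside 3.58% of all genes. None of these calls held without P7 plate 1, P7 plate 2 or adult plate 1. Each of those fits left a stage with 1 plate and also called a smaller share of all genes. Without adult plate 2 Nras was called (-1.77, adjusted p = 0.0122), but Ccnd1 and Spry4 were not (adjusted p = 0.134 and 0.105). At E15 against E13, at P7 against P4 and between left and right, where 44 could be tested, edgeR called 0 of the list. Those at an unadjusted p under 0.05 in edgeR were 11, 1 and 0, beside 2183 and 475 of 17453 genes and 182 of 15489. DESeq2 called 5, 1 and 0, beside 2.58%, 0.147% and 0.00286% of all genes.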

How the data were processed

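Single-cell transcriptomes of mouse habenula were measured on 20 plates. Trimmed reads (Trim Galore) were aligned with STAR 2.5.3a to mm10, per the submitters' processing notes. The authors deposited expected counts per gene and well, for all and for unspliced transcripts, as UMI counts corrected for collisions, a form found from the values: inverting it gave whole UMIs for 100% of values to within 1e-06. The tests planned assumed whole numbers, and the deposited values were therefore summed over kept wells per plate and rounded. The count minimum of 1000 for kept wells leaves out spike-ins and mitochondrial genes. Spike-ins stayed out of all sums. No doublet caller was run.

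Plates were replicates. Groups and replicate numbers are those of the labels. For the plate with both sides, titled E1, the stage label E18 was followed. Plates were sequenced 5 to a run, per the labels' protocols, with no record of which shared a run, so run and stage cannot be told apart. Sums were tested with edgeR 4.0.16 under R 4.3.3 (filterByExpr, TMM scaling, quasi-likelihood F test) in 1 fit of the 14 plates of 7 stages, without the E12 plate, and 1 fit of the 4 left and right plates. Adjusted p-values are Benjamini-Hochberg over all genes tested, with a threshold of 0.05. DESeq2 1.42.0 served as an alternative. The edgeR step was tested on data simulated with known changes. At E13 against E11 it recovered 25% of the genes changed by 1.5 on the log2 scale and 66.7% of those changed by 3. Between embryonic and postnatal stages it recovered 70.2% and 92.8%, and between left and right 63.6% and 89.1%. A gene not called at a successive step may therefore still have changed. Wells were clustered with scanpy 1.11.5 (2000 variable genes, 30 components, Leiden resolution 1), and a cluster was named where at least 3 markers of a list were at least 2-fold above other wells and in 20% of its wells. That list had to have more such markers than any other list. A name was withheld where another list had more of the leading genes, or where Pax8 or Nkx2-1 was among them. It was also withheld where wells were shallow for their plate and no marker of the list was among the leading genes. The plan held the marker lists but none of these rules for names. Intervals are exact at 95% and cover counting error only. The members and lists were chosen with earlier results of these data known. All members are given in every comparison where they could be tested. Likeness is Pearson's r over the developmental plates, with the first 3 genes given for 4 members. Coordinates are 1-based, from GENCODE release M21 (GRCm38). Other settings were other well thresholds, recovered UMIs, no gene filter, RLE size factors, a replicate block, each plate left out, thinned wells and other cluster resolutions, and, chosen after seeing the data, spliced UMIs only and wells with a Pou4f1 UMI only.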

Additional observations from a re-analysis of the deposited data

How the results depend on the processing

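Changing the low-count filter moved most counts of members called. With no filter on low genes the members called numbered 9 among stages, 4 between embryonic and postnatal stages, 5 at E13 against E11, 6 at E15 against E13, 4 at E18 against E15, 6 at P4 against E18 and 5 in the adult against P7, and the cause was not tested. The shares of all genes called in that setting were 27.0%, 24.5%, 4.56%, 3.32%, 3.89%, 12.8% and 4.70% in the same order. DESeq2 called 7 among stages, 1 at E15 against E13 (Spry1) and 2 at P4 against E18 (Fgfr2 and Fgfr3), beside 48.0%, 2.58% and 19.4% of all genes. Without wells above 3 times the plate median the counts were 7 among stages and 1 between embryonic and postnatal stages, beside 46.1% and 49.5%. In wells with a Pou4f1 UMI they were 4 between embryonic and postnatal stages and 1 in the adult against P7, beside 55.2% and 3.68%. A fit of only the 4 plates of the stages compared called 0 at P4 against E18 and 1 at P7 against P4, beside 3.58% and 3.64%. Leaving out each plate in turn moved the members called in every stage comparison but E15 against E13 and P7 against P4. The most members were called among stages, at E18 against E15 and at P4 against E18 without E18 plate 2, where the share of all genes called was also highest. Most fits that left out a plate called a smaller share of all genes than the main fit of the same comparison. A stage left with 1 plate is assumed to vary like the others. Without E18 plate 1 the change of Etv4 at E18 against E15 was -3.81 and that of Etv5 -0.69 (the highest were 8.14 without E15 plate 1 and 4.82 without E18 plate 2), and that of Fgf8 at P4 against E18 was 1.86 (lowest -6.88 without P4 plate 2). These sizes depend on the prior count and are no measure of a change, since E15 plate 2 and E18 plate 2 held 0 counts of Etv4 and of Fgf8, E18 plate 2 held 1 of Etv5, and the P4 plates held 0 and 1 of Fgf8.

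The correlation of the deviations of same-numbered plates ranged from -0.46 to 0.33 over 21 pairs of stages, with 7 over 0.1, and was 0.25 between left and right, where there are only 2 pairs, so the numbers were not taken as pairs. A replicate block changed the call of none of the 31 member results compared under it. Of the pathway list it called 1 at E13 against E11 (Gpc1 was lost), 0 at E18 against E15 (Fgf1 was lost), 10 at P4 against E18 and 1 in the adult against P7 (Ccnd1 and Spry4 were lost). With the block the genes called were 7200 among stages, 8512 between embryonic and postnatal stages, 196 at E13 against E11, 4 at E15 against E13, 16 at E18 against E15, 2916 at P4 against E18, 493 in the adult against P7 and 6 between left and right, where the fit without it called 0.

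Counts over all genes moved more at the smaller steps. DESeq2 called 902 genes at E13 against E11, 425 at E15 against E13, 632 at E18 against E15, 21 at P7 against P4 and 1359 in the adult against P7. With no filter these were 1715, 1249, 1461, 136 and 1766, and 37 between left and right. Leaving out plates gave 28 to 482, 1 to 81, 4 to 2100, 0 and 27 to 1074 at these steps, 574 to 5695 at P4 against E18 and 18 to 39 between left and right. Spliced UMIs gave 4 at E15 against E13 and 4 at E18 against E15, leaving out high wells 56 at E18 against E15 and 0 at P7 against P4, wells with at least 500 counts 4 between left and right, including the plate of both sides 1 there, and the 4-plate fits 0, 0, 528 and 541 at the 4 steps from E13 to P7. Thinning wells to 2000 UMIs moved 85 of 110 shares of wells by more than their spread. Levels per cluster class were classed as moved 19 times and as the same 91 times at cluster resolution 0.5. At resolution 2 these were 29 and 121 times. Adult plate 1, with 56 kept wells, has a floor of 3 counts worth 3.95 CPM, the least sensitive of the developmental plates.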
